A study of Mus musculus with 10 samples.

Results

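The Schlafen genes encode a family of mammalian proteins that share an RNA-binding core and fall into short, intermediate and long forms. The long forms add a helicase-like part that the short ones lack. Several family members are induced by type I interferon in immune cells, several bind or cut transfer RNA, and the name, German for sleep, comes from the growth arrest that the first members gave in mouse T cells. In mouse the genes lie side by side in one cluster. The 7 members described here are the short Slfn1 and Slfn2, the intermediate Slfn3 and Slfn4, and the long Slfn5, Slfn8 and Slfn9, taken by gene symbol from a table of 32074 genes.

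Their transcripts were measured by RNA sequencing in primary cortical microglia, the macrophages of the brain, grown from the cortices of CD-1 mouse pups aged 2 to 4 days. Every culture received medium with 10% exosome-depleted serum for 24 h. One group of 4 libraries received phosphate-buffered saline (PBS) as control. The remaining cultures received 1 µg of sEVs (small extracellular vesicles, the membrane particles that cells shed), which had been isolated from the serum of sham-operated mice (sham sEV, 3 libraries) or of mice with spared nerve injury (SNI sEV, 3 libraries), a model of neuropathic pain in which some branches of the sciatic nerve are cut. The labels call the libraries biological replicates and do not say whether cultures or vesicle preparations were separate, so p-values measure only the spread between these libraries. The strain, sex and age of the vesicle donors are not given in the sources used here.

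Sham sEVs went with higher levels of 6 of the 7 members and a lower level of Slfn9. SNI sEVs went with smaller rises, which passed the test for Slfn2, Slfn5 and Slfn8 and brought Slfn5 close to its level under sham sEVs. Slfn1 and Slfn4 were high under sham sEVs and did not pass the test under SNI sEVs. Slfn9 was lowest under sham sEVs and highest under SNI sEVs. Levels are given in TPM, a measure of transcript abundance corrected for gene length and scaled to a sum of 1000000 in each library, so levels can be set beside each other between genes. Read totals cannot be recovered from this unit, so the sequencing depth is not known and the errors given are those between libraries.

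On mouse build GRCm38.p6 the cluster runs over 264 kb of chromosome 11, from 82951349 to 83215154. In order along the chromosome it holds Slfn5 (82951349 to 82964850), Slfn9 (82974316 to 82991830), Slfn8 (83002125 to 83020810), the transcribed pseudogene Slfn10-ps (83028123 to 83040533), Slfn2 (83065112 to 83070678), Slfn1 (83116820 to 83122670), Slfn4 (83175172 to 83190216) and Slfn3 (83191330 to 83215154). Slfn8 and Slfn9 are read from the minus strand and the other 5 members from the plus strand. The antisense gene Slfn5os (82942341 to 82960681) overlaps Slfn5. The library kit was stranded, but whether the counting used strand is not given in the sources used here, so a contribution of Slfn5os reads to Slfn5 cannot be told apart.

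Promoter sequences from RefSeq (GRCm38.p6) were found for 7 of 7 members and were searched on both strands from 250 bases before to 50 bases after the annotated start. The core of the interferon-stimulated response element (GAAA and GAAA with any 2 bases between them), the sequence bound by interferon-activated transcription factors, occurred in 3 members, Slfn5, Slfn8 and Slfn9. It occurred in 1131 of 32851 mouse promoters of the same length, or 3.44%. These 3 promoters are shown because they belong to the long members, among which are both the highest rise under SNI sEVs and the member that fell under sham sEVs. Each sequence is the 250 bases before the start, 5′ to 3′ on the strand of the gene, and capitals mark the match:
Slfn5, chr11:82951852-82952101, plus strand: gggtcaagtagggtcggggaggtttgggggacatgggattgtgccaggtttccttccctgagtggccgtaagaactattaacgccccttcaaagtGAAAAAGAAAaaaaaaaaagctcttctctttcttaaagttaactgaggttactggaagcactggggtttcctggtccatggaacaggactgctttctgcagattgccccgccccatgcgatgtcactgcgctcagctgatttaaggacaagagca
Slfn8, chr11:83020811-83021060, minus strand: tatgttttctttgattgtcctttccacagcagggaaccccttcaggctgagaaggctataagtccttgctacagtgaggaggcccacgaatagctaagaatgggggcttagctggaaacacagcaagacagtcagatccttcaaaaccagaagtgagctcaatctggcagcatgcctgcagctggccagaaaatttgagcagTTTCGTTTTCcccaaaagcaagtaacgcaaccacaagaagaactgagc
Slfn9, chr11:82991831-82992080, minus strand: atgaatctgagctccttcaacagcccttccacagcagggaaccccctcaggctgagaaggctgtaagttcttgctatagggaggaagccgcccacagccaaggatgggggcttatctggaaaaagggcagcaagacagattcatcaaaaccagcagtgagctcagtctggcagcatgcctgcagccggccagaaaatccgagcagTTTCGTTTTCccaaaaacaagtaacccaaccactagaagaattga

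The match in Slfn5 (GAAAAAGAAA) lay on the strand of the gene at positions -155 to -146 from a start at 82952102, which is inside the outer limit of the gene given above. In Slfn8 and Slfn9 the motif lay on the opposite strand, so the strand of the gene shows its complement, the same letters TTTCGTTTTC in both. The site was at -48 to -39 in Slfn8 and -45 to -36 in Slfn9. Slfn8 has a second annotated start at 83020722, whose window holds the same site at -136 to -127. Slfn8 and Slfn9 are alike over the whole stretch shown, with 210 of 262 aligned columns identical (80.2%), while no other pair among the promoters of the 7 members and of Slfn14, a further family gene outside the cluster limits, exceeded 53.4%.

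Counts of other motifs are given beside their shares of all promoters, and 7 members are too few to show a difference from those shares. The gamma-activated site (TTCNNNGAA), known from interferon-gamma signalling, occurred in none of the 7 members against 8.30% of all promoters. A kappaB-like site (GGG and CC with any 5 bases between them), the kind bound by NF-kappaB, occurred in Slfn1 (GGGGTTCTCC at -43 to -34) and in Slfn9 (GGGAACCCCC at -214 to -205, on both strands), and in 50.8% of all promoters. A TATA box (TATAAA) occurred in Slfn4 at -19 to -14 and in 13.6% of all promoters. No match of one motif overlapped a match of another. A match describes letters in a window, and no binding was measured.

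**Figure D1:**
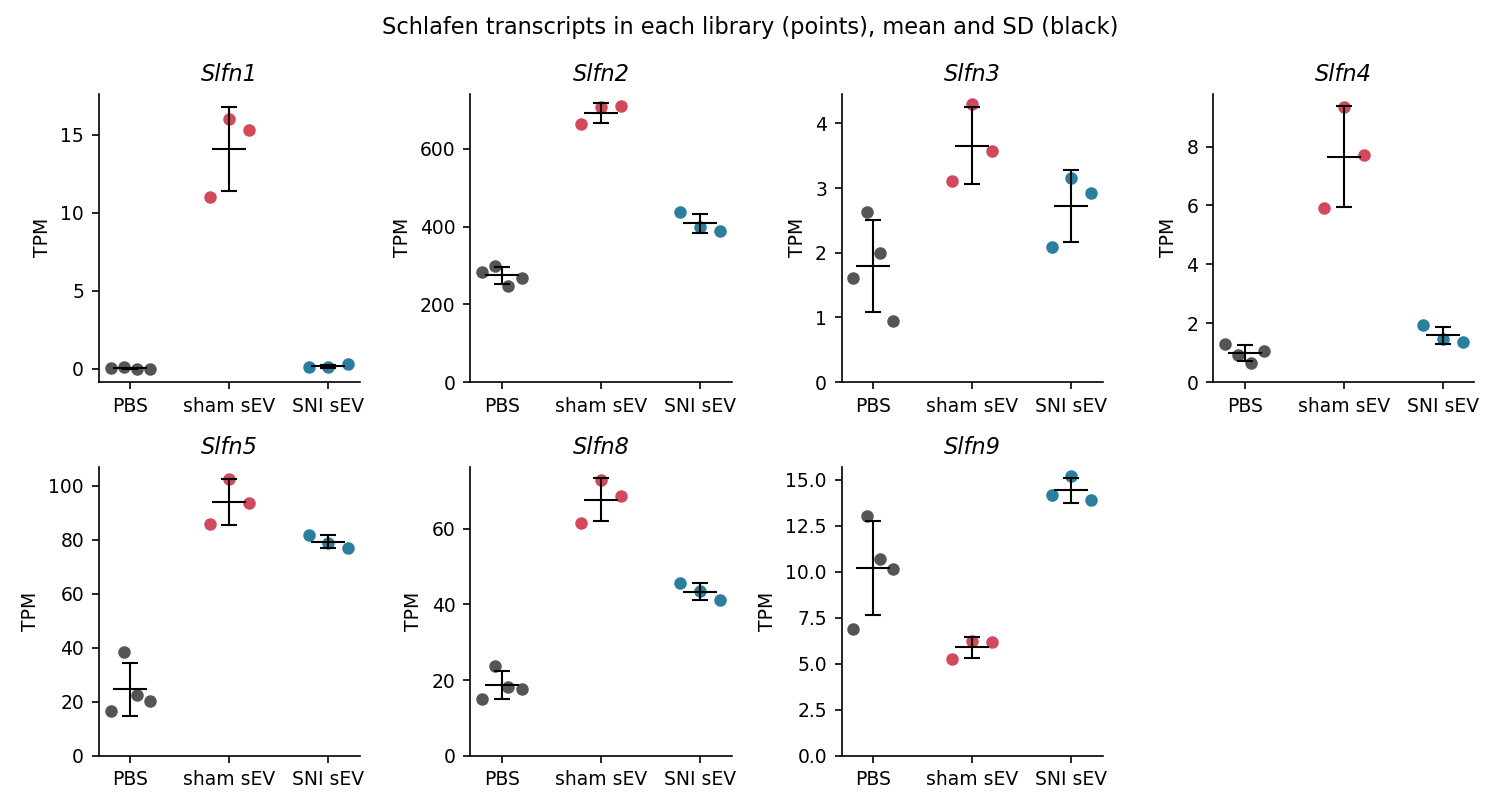
TPM (vertical axes, each panel on its own linear scale) of the 7 Schlafen members in the 4 PBS, 3 sham sEV and 3 SNI sEV libraries. Points are libraries and black bars the mean and SD. Slfn1 and Slfn4 are high in the sham sEV libraries alone, Slfn5 is high in both vesicle groups, and Slfn9 is lowest in the sham sEV libraries.

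Slfn2 was the most abundant member in every group. In mouse T cells its protein is needed to keep resting cells quiescent and shields transfer RNA from cutting by angiogenin. The PBS libraries 1 to 4 held 283, 299, 247 and 269 TPM, the sham sEV libraries 1 to 3 held 663, 706 and 709 TPM, and the SNI sEV libraries 1 to 3 held 437, 399 and 389 TPM. The 3 groups did not overlap, with SNI sEV between the others. Slfn2 was 2.52-fold higher under sham sEVs than in PBS on the scale of TPM + 1 (1.33 ± 0.07 SE as log2 fold change, limma adjusted p = 9.51e-09) and 1.49-fold higher under SNI sEVs (0.57 ± 0.07, limma adjusted p = 0.000393). Under SNI sEVs it was 1.70-fold lower than under sham sEVs (-0.76 ± 0.07, limma adjusted p = 3.15e-06).

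Slfn1, the other short member and the first to be named, as a brake on the growth of mouse thymocytes, was close to undetected without sham sEVs. Its levels were 0.0542, 0.0914, 0 and 0 TPM in PBS, 10.99, 16.02 and 15.3 TPM under sham sEVs, and 0.0957, 0.0923 and 0.288 TPM under SNI sEVs. The sham sEV libraries were high and all others were below 1 TPM. On the scale of TPM + 1, Slfn1 was 14.4-fold higher under sham sEVs than in PBS (log2 fold change 3.85 ± 0.12 SE, limma adjusted p = 2.12e-10). This fold depends on the added 1, since the PBS level is near 0, and the log2 fold change was 4.75 with 0.5 added and 6.74 with 0.1 added. SNI sEVs against PBS gave 0.16 ± 0.12 (limma adjusted p = 0.544), and SNI sEVs against sham sEVs gave -3.69 ± 0.13 (limma adjusted p = 8.01e-10). Slfn1 passed the filter on low values through the sham sEV libraries alone, so the difference that its call rests on is also what let it be tested.

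Slfn4, an intermediate member, is known in mouse from macrophages and from a suppressive myeloid population of the inflamed stomach. It stood at 1.30, 0.909, 0.646 and 1.07 TPM in PBS, at 5.90, 9.33 and 7.72 TPM under sham sEVs, and at 1.93, 1.46 and 1.38 TPM under SNI sEVs. The sham sEV libraries were the high ones, and the lowest SNI sEV library lay just above the highest PBS library. Slfn4 was 4.34-fold higher under sham sEVs than in PBS (log2 fold change 2.12 ± 0.15 SE, limma adjusted p = 1.83e-07) and 3.31-fold lower under SNI sEVs than under sham sEVs (-1.73 ± 0.16, limma adjusted p = 2.62e-06). The difference between SNI sEVs and PBS was 0.39 ± 0.15 and did not pass the test (limma adjusted p = 0.187).

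Slfn3, the neighbour of Slfn4 and studied mostly in the gut lining of rats, had the smallest fold change of the 6 members that rose under sham sEVs. It measured 1.61, 2.64, 2.00 and 0.943 TPM in PBS, 3.11, 4.30 and 3.57 TPM under sham sEVs, and 2.10, 3.15 and 2.93 TPM under SNI sEVs. The SNI sEV libraries overlapped both other groups, and the sham sEV libraries lay above all PBS libraries. Slfn3 was 1.70-fold higher under sham sEVs than in PBS (log2 fold change 0.77 ± 0.19 SE, limma adjusted p = 0.00372). Neither SNI sEVs against PBS (0.44 ± 0.19, limma adjusted p = 0.244) nor SNI sEVs against sham sEVs (-0.33 ± 0.20, 95% interval -0.77 to 0.12, limma adjusted p = 0.174) passed the test. The last of these passed under other scalings of the libraries, at -0.54 with median-of-ratios scaling (limma adjusted p = 0.0367) and -0.70 with quantile normalization (limma adjusted p = 0.0102).

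The long member Slfn5, a nuclear protein that in human cells restrains interferon-driven transcription, gave the largest rise of the family under SNI sEVs. Its levels were 16.7, 38.6, 22.5 and 20.3 TPM in PBS, 85.8, 102.6 and 93.5 TPM under sham sEVs, and 81.9, 79.0 and 77.0 TPM under SNI sEVs. Both vesicle groups lay above every PBS library, and the SNI sEV libraries lay just below the sham sEV libraries. Slfn5 was 3.89-fold higher under sham sEVs (log2 fold change 1.96 ± 0.21 SE, limma adjusted p = 6.12e-06) and 3.30-fold higher under SNI sEVs (1.72 ± 0.21, limma adjusted p = 0.000468) than in PBS. Among the 14806 genes tested, the SNI sEV rise ranked 29th from the highest log2 fold change. SNI sEVs and sham sEVs differed by -0.24 ± 0.22 (95% interval -0.73 to 0.25, limma adjusted p = 0.36), a difference that did not pass the test with a spread shared by the 3 groups and passed when the fit held only these 2 groups (limma adjusted p = 0.00884). PBS library 2 stood at 1.95 times the mean of the other PBS libraries for Slfn5. Without it the log2 fold changes against PBS were 2.19 for sham sEVs and 1.96 for SNI sEVs. That library was also the highest of the PBS libraries for every other member except Slfn4.

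Slfn8, a long member whose loss in mice has been studied in autoimmune inflammation of the brain, stepped up across the groups as Slfn2 did. It held 15.0, 23.8, 18.2 and 17.6 TPM in PBS, 61.7, 73.0 and 68.6 TPM under sham sEVs, and 45.6, 43.5 and 41.2 TPM under SNI sEVs. The 3 groups did not overlap. Slfn8 was 3.54-fold higher under sham sEVs (log2 fold change 1.82 ± 0.12 SE, limma adjusted p = 1.09e-07) and 2.29-fold higher under SNI sEVs (1.20 ± 0.12, limma adjusted p = 0.000147) than in PBS, and the SNI sEV rise ranked 73rd of the 14806 genes. Against sham sEVs it was 1.55-fold lower under SNI sEVs (-0.63 ± 0.13, limma adjusted p = 0.00132).

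Slfn9, the close relative and neighbour of Slfn8, whose own function is little known, ran the other way. Its levels were 6.90, 13.0, 10.7 and 10.1 TPM in PBS, 5.23, 6.24 and 6.20 TPM under sham sEVs, and 14.2, 15.2 and 13.9 TPM under SNI sEVs. Every sham sEV library was below every PBS library and every SNI sEV library above them. Slfn9 was 1.59-fold lower under sham sEVs than in PBS (log2 fold change -0.67 ± 0.15 SE, limma adjusted p = 0.00232) and 2.24-fold higher under SNI sEVs than under sham sEVs (1.16 ± 0.17, limma adjusted p = 8.71e-05). The rise against PBS under SNI sEVs, 0.49 ± 0.15, did not pass the test (limma adjusted p = 0.106), although it did without PBS library 2 (0.61, limma adjusted p = 0.0282) and after quantile normalization (0.50, limma adjusted p = 0.0481).

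**Figure D2:**
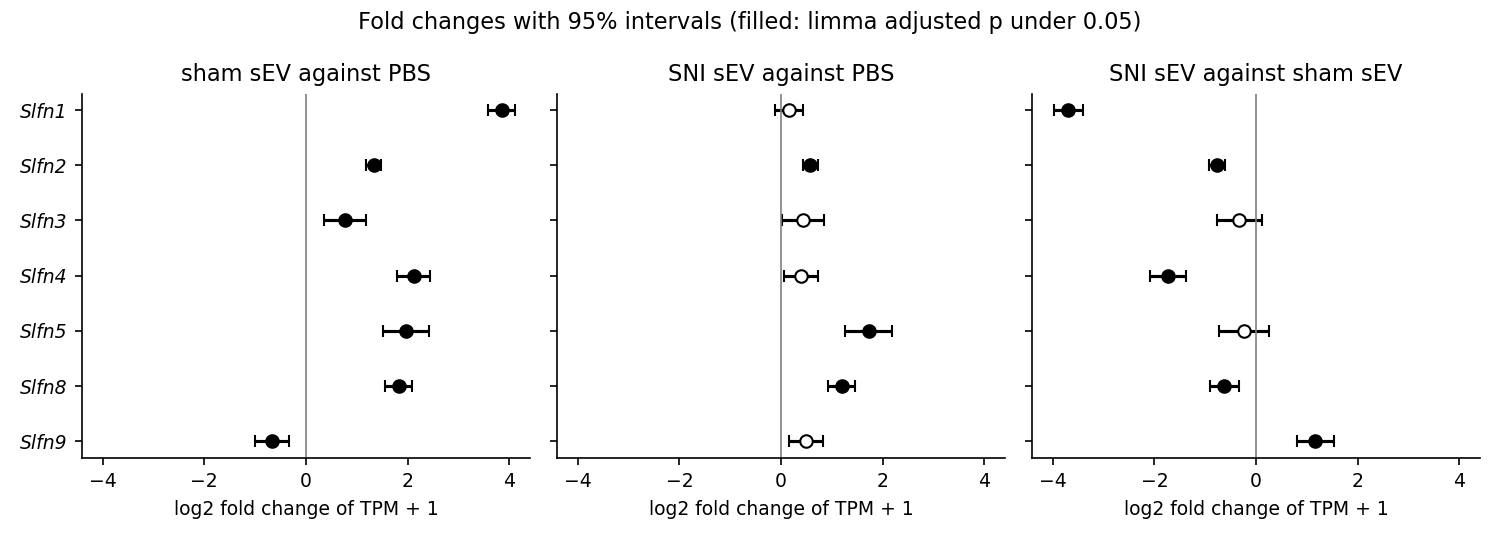
Log2 fold change of TPM + 1 (horizontal axes) of the 7 members in sham sEV against PBS, SNI sEV against PBS and SNI sEV against sham sEV, with 95% intervals of the limma fit. Filled points have an adjusted p under 0.05: 7 members in the first panel, 3 in the second and 5 in the third.

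The comparison of sham sEVs with PBS asks how the family differed after vesicles of animals without nerve injury. Most of the transcriptome differed here, so the family's count has to be read against a high background: 68.9% of the 14806 genes tested passed the threshold, 16.5% higher and 52.5% lower. Of the 7 members, 6 were higher and 1 lower, and in the same 7 the groups did not overlap, as in 66.5% of all genes (16.7% with the sham sEV libraries above and 49.8% below). The median log2 fold change was 1.82 over the members and -0.25 over all genes tested. That median of all genes depends on scaling: as deposited, 2437 genes were higher and 7768 lower, while median-of-ratios scaling gave 4728 and 4579 and quantile normalization 4307 and 4883. The rises of the 6 members and the fall of Slfn9 all passed the test under both scalings, with Slfn9 at -0.42 (limma adjusted p = 0.02) and -0.35 (limma adjusted p = 0.0334).

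The comparison of SNI sEVs with PBS asks this for vesicles of injured animals, with the same PBS libraries as control. Here 5.34% of all genes passed the threshold (2.97% higher, 2.36% lower), against 3 of 7 members, all higher. The count over all genes, 790, fell to 373, 435 and 502 without SNI sEV library 1, 2 or 3 and to 504 without PBS library 3, while the 3 members kept their calls. The SNI sEV libraries lay above all PBS libraries for 6 of 7 members, Slfn3 being the exception, and for 6.29% of all genes. Slfn1 was among the 6 although it was near 0 in both groups. Its lowest SNI sEV library held 0.0923 TPM and its highest PBS library 0.0914 TPM. The groups did not overlap in either direction for 17.3% of all genes. The median log2 fold change was 0.49 over the members and -0.01 over all genes.

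SNI sEVs against sham sEVs is the comparison of injured with uninjured vesicle donors. Slfn1, Slfn2, Slfn4 and Slfn8 were lower, Slfn9 was higher, and Slfn3 and Slfn5 did not pass the test, against 65.6% of all genes called (49.9% higher, 15.7% lower). The groups did not overlap for 6 of 7 members, 5 below and 1 above, as for 78.1% of all genes (19.4% below and 58.8% above). The median log2 fold change was -0.63 over the members and 0.24 over all genes. Of all genes, 7388 were higher and 2319 lower as deposited, 4250 and 4466 with median-of-ratios scaling, and 4373 and 4130 with quantile normalization.

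The authors' deposited table of differential genes lists 6 of the 7 members, without Slfn3, among its 2375 genes. For sham sEVs against PBS, the authors' deposited table gives false discovery rates (FDRs) from 3.32e-05 for Slfn1 to 0.0443 for Slfn9. For SNI sEVs against PBS, the authors' deposited table gives an FDR of 0.0498 for Slfn8, 0.0551 for Slfn2 and 0.0761 for Slfn5, so that of the 3 members called here only Slfn8 is under 0.05 there. For SNI sEVs against sham sEVs, the authors' deposited table gives FDRs from 0.000312 for Slfn1 to 0.00404 for Slfn8 in 5 members and 0.0553 for Slfn5. The test behind these FDRs is not given in the sources used here.

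Summed over the 7 members, the family made up 331 ± 33.4 TPM in PBS (SD, n = 4; range 301 to 378), 886 ± 44.0 TPM under sham sEVs (SD, n = 3; 835 to 918) and 550.1 ± 29.1 TPM under SNI sEVs (SD, n = 3; 526 to 582). Slfn2 carried most of each sum, with 83.2%, 78.2% and 74.2% in the 3 groups. The Slfn5 share went the other way, at 7.30% in PBS, 10.6% under sham sEVs and 14.4% under SNI sEVs. Slfn8 accounted for 5.61%, 7.64% and 7.89%. Slfn9 made up 3.08% in PBS and 2.63% under SNI sEVs but 0.664% under sham sEVs, where Slfn1 reached 1.58%. These shares are descriptions without a test.

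**Figure D3:**
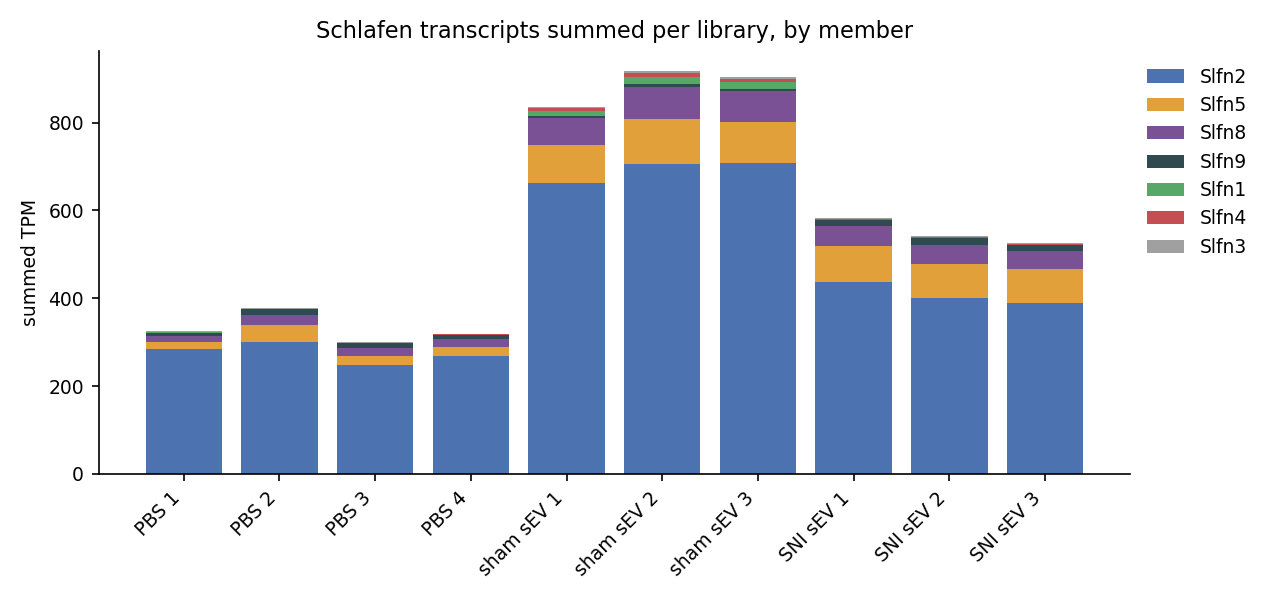
Summed TPM of the 7 members in each library (bars from 0), stacked by member. The sham sEV libraries reach 835 to 918 TPM, the SNI sEV libraries 526 to 582 TPM and the PBS libraries 301 to 378 TPM, with Slfn2 the largest part of each bar.

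By mean TPM, the order in PBS was Slfn2, Slfn5, Slfn8, Slfn9, Slfn3, Slfn4 and Slfn1, where Slfn5 and Slfn8 overlapped between libraries, as did Slfn3 and Slfn4. Under SNI sEVs the order was the same and no neighbours in it overlapped. Under sham sEVs Slfn1 and Slfn4 moved ahead of Slfn9, and the order was Slfn2, Slfn5, Slfn8, Slfn1, Slfn4, Slfn9 and Slfn3, with Slfn4 and Slfn9 overlapping.

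Ratios of members within each library do not depend on scaling between libraries. The ratio of Slfn8 to Slfn9 was 1.86 ± 0.220 in PBS (SD, n = 4; 1.70 to 2.18), 11.5 ± 0.388 under sham sEVs (SD, n = 3; 11.1 to 11.8) and 3.02 ± 0.180 under SNI sEVs (SD, n = 3; 2.86 to 3.22), with no overlap between groups. Slfn4 to Slfn3 was 0.653 in PBS, 2.08 under sham sEVs and 0.619 under SNI sEVs. Slfn5 to Slfn8 was 1.28 in PBS (1.11 to 1.62), 1.39 under sham sEVs (1.36 to 1.41) and 1.83 under SNI sEVs (1.80 to 1.87), so it was highest under SNI sEVs.

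Near-identical stretches limit how far Slfn8 and Slfn9, and Slfn3 and Slfn4, can be told apart. In the longest GENCODE M21 transcript of each gene, 9.82% of the 50-base stretches of Slfn8 occur exactly in Slfn9, and 6.24% of those of Slfn9 in Slfn8. With 75-base stretches the shares are 3.96% and 2.62%. For Slfn3, 7.97% of the 50-base stretches occur in Slfn4, and 6.45% of those of Slfn4 in Slfn3. Slfn2 shared 4.27% with Slfn4, Slfn1 shared 0.606% with any relative, and Slfn5 shared none. How reads of such copies were divided is not given in the sources used here, so the levels of Slfn3, Slfn4, Slfn8 and Slfn9 are uncertain. The shares do not bound that uncertainty, since a low member such as Slfn4 or Slfn9 could take up reads of a far more abundant relative.

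The table also holds relatives outside the 7 members. Slfn10-ps, the pseudogene beside Slfn8, held 5.29, 11.7, 10.2 and 10.1 TPM in PBS, 9.06, 9.79 and 8.89 TPM under sham sEVs and 12.5, 12.8 and 13.8 TPM under SNI sEVs. Its log2 fold change was 0.04 for sham sEVs (limma adjusted p = 0.873) and 0.49 for SNI sEVs (limma adjusted p = 0.196), the same size as that of Slfn9. The pseudogene shares 11.8% of its 50-base stretches with Slfn8 and 13.5% with Slfn9. Both values rested on PBS library 1, without which they were -0.18 (limma adjusted p = 0.0287) and 0.27 (limma adjusted p = 0.0404). Between the vesicle groups Slfn10-ps was at 0.45 under SNI sEVs against sham sEVs (limma adjusted p = 0.071), and this passed the test without PBS library 1 (limma adjusted p = 0.00015) or with only these 2 groups in the fit (limma adjusted p = 0.000164). Slfn14, a long form known from platelets and red cell precursors, did not exceed 0.0178 TPM in any library, and the Schlafen-like gene Slfnl1 did not exceed 0.0903 TPM.

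Genes around the cluster were read beside the members. Within 300 kb of its outer ends and between the members, 14 other genes were tested. Under sham sEVs 4 were higher and 4 lower than in PBS, with log2 fold changes from -0.54 to 0.39, while the smallest in size among the members was the -0.67 of Slfn9. With median-of-ratios scaling Lig3 (0.49), Ap2b1, Rffl and AI662270, among the nearest neighbours, exceeded the -0.42 of Slfn9 in size. Under SNI sEVs none of the 14 passed limma's test, with log2 fold changes from -0.58 to 0.49, and the -0.58 of AA465934 exceeded in size all members except Slfn5 and Slfn8. Against sham sEVs, 4 were higher and 3 lower under SNI sEVs, from -0.55 to 0.48.

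Of the nearest named genes on the Slfn5 side, Nle1, a ribosome assembly factor, had a log2 fold change of -0.35 under sham sEVs against PBS (limma adjusted p = 0.000401) and Rad51d, a DNA repair gene, at -0.53 (limma adjusted p = 9.47e-05). The ubiquitin ligase gene Rffl was at 0.32 (limma adjusted p = 0.000751) and the DNA ligase gene Lig3 at 0.22 (limma adjusted p = 0.0789). On the Slfn3 side the log2 fold changes were 0.39 for AI662270 (limma adjusted p = 0.00846), -0.47 for AA465934 (limma adjusted p = 0.0569) and 0.24 for the clathrin adaptor gene Ap2b1 (limma adjusted p = 0.018). Changes this small turned on scaling: Nle1 lost its call and Lig3 gained one under both other scalings. Ap2b1 lost its call without sham sEV library 2 (limma adjusted p = 0.0665).

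**Figure D4:**
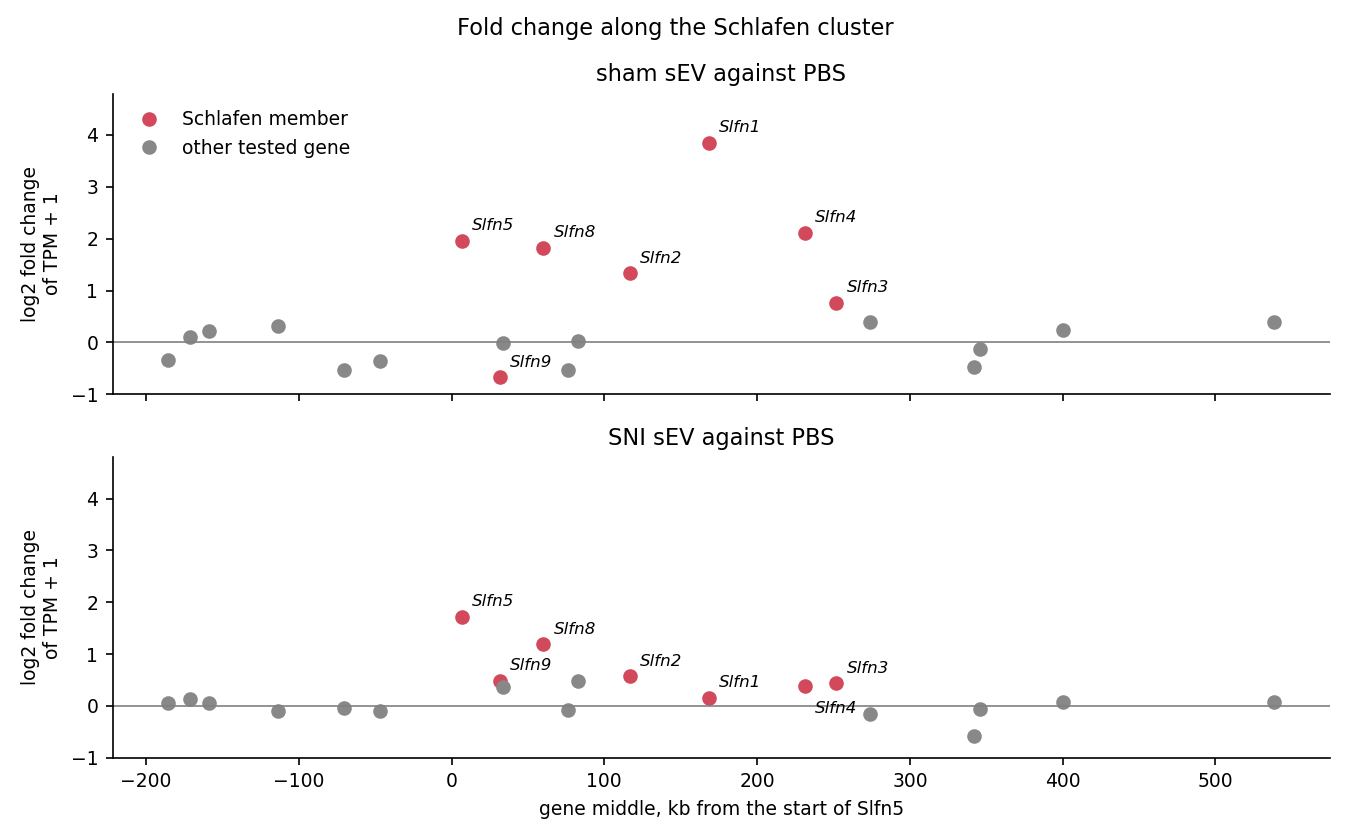
Log2 fold change of TPM + 1 (vertical axes) of the 7 members (red, named) and 14 other tested genes (grey) by distance in kb of the middle of each gene from the start of Slfn5, for sham sEV (top) and SNI sEV (bottom) against PBS. Under sham sEVs the grey points lie between -0.54 and 0.39, while 6 members lie above and Slfn9 lies below.

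Genes whose levels ran most like those of the 3 most abundant members were found by the root mean square difference of log2(TPM + 1), taken from the PBS mean, over the 10 libraries. Schlafen genes and predicted genes were left out of this search, so no family member could be named as nearest. For Slfn2 the nearest were the class I histocompatibility gene H2-D1 (0.0552), Parp10 (0.0798), Sirpb1a (0.0854) and Ifi35 (0.0937), against a median of 0.951 over all genes searched. H2-D1 went from 2134 TPM in PBS to 5336 TPM under sham sEVs and 3247 TPM under SNI sEVs. For Slfn8 the nearest were the nuclear body gene Sp100 (0.0814), the interferon-induced Trim30a (0.0999), the interferon signalling gene Stat2 (0.108) and Lgals3bp (0.137), against a median of 1.34. For Slfn5 they were Ifi27l2a (0.177), the sialic acid receptor gene Siglec1 (0.245), Ifi202b (0.260) and Lgals3bp (0.268), against a median of 1.57. Ifi27l2a stood at 113 TPM in PBS, 406 TPM under sham sEVs and 374 TPM under SNI sEVs. The genes named were picked as the nearest by this measure, so that they lie below the median was fixed by the choice. The libraries behind these measures are shared, and genes are not independent replicates.

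Genes of type I interferon signalling, the pathway known to induce several Schlafen genes, were mostly higher under sham sEVs, and fewer were higher under SNI sEVs. Of 12 tested, 9 were higher and 3 lower under sham sEVs than in PBS (median log2 fold change 0.77 against -0.25 over all genes), and 5 were higher and none lower under SNI sEVs (0.26 against -0.01). The shares over all genes that these and the following counts are read against were 16.5% higher and 52.5% lower under sham sEVs, 2.97% and 2.36% under SNI sEVs, and 49.9% and 15.7% for SNI sEVs against sham sEVs. Irf7, a transcription factor that amplifies the interferon response, averaged 24.3 TPM in PBS, 1098 TPM under sham sEVs and 129 TPM under SNI sEVs. Stat2, a subunit of the factor that binds the response element, averaged 42.8, 168 and 105 TPM. Usp18, which dampens signalling at the interferon receptor, went from 19.9 to 339 TPM under sham sEVs and 67.1 TPM under SNI sEVs. All 3 passed the test in each of the 3 comparisons. Between the vesicle groups, 3 of the 12 were higher and 7 lower under SNI sEVs. Ifnb1, the interferon-beta gene, was under the filter, at 0.0166 TPM in PBS, 0.378 TPM under sham sEVs and 0.0770 TPM under SNI sEVs on average.

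NF-kappaB subunits, transcription factors of the inflammatory response, were mostly higher under sham sEVs. Of 5 tested, 4 were higher and 1 lower under sham sEVs than in PBS, none passed limma's test under SNI sEVs, and 4 were lower under SNI sEVs than under sham sEVs. Nfkb1 averaged 75.02 TPM in PBS, 139 TPM under sham sEVs and 79.9 TPM under SNI sEVs. Nfkb2 was at 20.3, 54.5 and 20.0 TPM, Rel at 12.2, 33.5 and 13.96 TPM, and Relb at 15.99, 27.3 and 15.0 TPM. Rela, the lower one, was at 90.4, 77.2 and 84.6 TPM and did not pass the test between the vesicle groups (limma adjusted p = 0.164). The median log2 fold change of the list was 0.88 under sham sEVs and -0.01 under SNI sEVs.

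The genes of transfer RNA cleavage and repair, the process in which Slfn2 acts in T cells, did not rise. Of 9 tested, none was higher and 5 were lower under sham sEVs, none was called under SNI sEVs, and 4 were higher under SNI sEVs than under sham sEVs. These shares are near those of all genes. Ang, which encodes the nuclease angiogenin, averaged 5.33 TPM in PBS, 0.699 TPM under sham sEVs and 4.09 TPM under SNI sEVs. Its inhibitor Rnh1 was at 572, 242 and 551 TPM. The ligase gene Rtcb was at 163, 127 and 154 TPM, a fall under sham sEVs that did not pass the test with median-of-ratios scaling (limma adjusted p = 0.368). The list's median log2 fold change was -0.36 under sham sEVs, near the -0.25 of all genes.

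In a list of other factors that shut off translation or sense stress, most genes were higher under both vesicle treatments, but not most of its stress kinase genes. Of 12 tested, 9 were higher and 2 lower under sham sEVs (median log2 fold change 2.69), 8 were higher and none lower under SNI sEVs (1.59), and 2 were higher and 7 lower under SNI sEVs than under sham sEVs. Ifit1, whose protein binds foreign capped RNA, averaged 6.97 TPM in PBS, 246 TPM under sham sEVs and 35.5 TPM under SNI sEVs. Ifit3 was at 7.82, 117 and 39.1 TPM, and the RNA sensors Oas1a and Oas3 at 66.1, 338 and 169 TPM and at 3.37, 68.2 and 31.0 TPM. Of the stress kinase genes, Eif2ak2 was higher than in PBS under both treatments (23.1, 49.5 and 43.2 TPM). The 2 genes lower under sham sEVs were Eif2ak3 (21.4, 15.4 and 18.7 TPM) and Eif2ak4 (15.0, 7.95 and 13.4 TPM). Eif2ak1 was not called in any comparison (48.8, 47.5 and 49.9 TPM).

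Proliferation genes fell under sham sEVs. All 12 proliferation genes were lower under sham sEVs than in PBS (median log2 fold change -2.87), 4 were lower under SNI sEVs (-0.17), and 12 were higher under SNI sEVs than under sham sEVs. Cdk1, the kinase that drives entry into mitosis, averaged 35.7, 4.24 and 28.6 TPM in PBS, sham sEV and SNI sEV libraries, Ccnb2 39.7, 1.97 and 26.8 TPM, Aurkb 29.8, 3.63 and 24.0 TPM, and Ccna2 21.6, 0.833 and 18.8 TPM. Of 11 quiescence genes, 1 was higher and 6 lower under sham sEVs, none was called under SNI sEVs, and 5 were higher and 2 lower under SNI sEVs than under sham sEVs. These counts and the median log2 fold change under sham sEVs (-0.26 against -0.25) were near those of all genes. The higher one was Foxp1, needed for naive T cell quiescence in mouse, at 1.82, 7.41 and 2.20 TPM. Foxo1 was at 5.38, 2.58 and 5.36 TPM, Foxo3 at 24.8, 15.2 and 22.5 TPM, and Klf2 at 22.2, 14.9 and 21.2 TPM, where the fall of Klf2 did not pass the test with median-of-ratios scaling (limma adjusted p = 0.0621).

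Markers of the labelled cells and of other cells were read beside these results. Of 11 microglial markers, 10 averaged at least 1 TPM in each group, and their sum was 7457 to 8060 TPM in PBS, 8197 to 8538 TPM under sham sEVs and 8778 to 9402 TPM under SNI sEVs, with Siglech near 0 in all groups. In cultures read in bulk, fewer cells of a type and less RNA per cell cannot be told apart. Slfn1 and Slfn4 are also expressed by other leukocytes. Summed neutrophil markers were at 6.44 to 10.5 TPM in PBS, 37.5 to 38.9 TPM under sham sEVs and 10.0 to 13.3 TPM under SNI sEVs, of which S100a8 (8.41, 32.1 and 11.7 TPM) and Camp (0.102, 6.13 and 0.105 TPM) moved with the sham sEV group. The defining genes Ly6g and S100a9 were at 0 in all PBS and SNI sEV libraries and did not exceed 0.0849 TPM under sham sEVs, and Mpo and Ngp did not exceed 0.0752 TPM anywhere.

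Of 5 T cell markers only 2 had a value, too few to show whether T cell markers rose under sham sEVs. Lck averaged 2.51, 1.54 and 2.54 TPM in PBS, sham sEV and SNI sEV libraries. Cd3d did not exceed 0.0578 TPM in any library. Platelet and red cell markers summed to 32.9 to 44.1, 77.2 to 101 and 28.2 to 31.4 TPM, nearly all of it Pf4 (36.4, 86.3 and 29.4 TPM), with the other 4 markers below 1 TPM. Astrocyte markers (63.5 to 80.2, 33.3 to 42.5 and 68.6 to 83.5 TPM) and oligodendrocyte lineage markers (419 to 473, 266 to 299 and 450 to 519 TPM) were lower under sham sEVs. Neuron markers summed to 9.40 to 15.6 TPM, 9.83 to 11.9 TPM and 10.8 to 12.3 TPM. Fibroblast markers summed to at most 2.33 TPM, endothelial markers to 1.38 TPM and B cell markers to 0.364 TPM. The fibroblast and endothelial sums were highest under sham sEVs. The fibroblast sum there was mostly Dcn (0.0372, 1.89 and 0.0508 TPM). Col1a1 (0.0590, 0.0422 and 0.113 TPM) and Col1a2 (0.345, 0.104 and 0.739 TPM) averaged lowest under sham sEVs. The part of these other markers in the Schlafen results was not tested. No batch is named in the labels, and any batch that coincided with a treatment group cannot be told apart from it.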

How the data were processed

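Messenger RNA of 10 libraries of cultured microglia was measured, grouped by the treatment label into PBS (4), sham sEV (3) and SNI sEV (3). Per the labels' protocols, total RNA came from a column kit with DNase treatment, and a stranded poly(A) kit gave the libraries. Per the submitters' processing notes, the tools were BWA, featureCounts 2.0.2, Subread and bcl2fastq, and the build was mm10. Their roles, the annotation and the treatment of reads from near-identical copies are not given in the sources used here.

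The authors deposited TPM values for 32074 genes, 1 column per library, each scaled to a total of 1000000. TPM keeps no read totals, so depth is unknown and no count test was made. The authors also deposited a table of 2375 genes with a signed fold change (a score that is negative where the first group is lower) and an FDR, an adjusted p-value, for 3 comparisons.

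The 14806 genes that averaged 1 TPM or more were fitted as log2(TPM + 1) in limma 3.58.1 (R 4.3.3), with 1 mean per group and a shared spread (eBayes with trend). The tests of the 3 comparisons were two-sided, their p-values were adjusted by Benjamini-Hochberg over all 14806 genes, and the threshold was 0.05. All 7 members passed the filter, Slfn1 through the sham sEV libraries alone. The fit was tested on simulated data. Fold changes on TPM + 1 understate ratios of genes near 0.

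The members, gene lists, markers and motifs were chosen with earlier results of these data known. All 7 members are named. From each list up to 4 genes are named by smallest p in sham sEV against PBS, and from the neighbours within 300 kb the 4 nearest tested on each side, with predicted genes skipped and some genes of this rule not reported here. Other genes of the lists and markers named in the text were chosen after their values were seen. For likeness, the 4 nearest genes to each of the 3 most abundant members are named, with predicted genes and Schlafen genes skipped. Coordinates and promoters are from RefSeq (GRCm38.p6), transcripts from GENCODE M21, and promoters were aligned with Biopython 1.88.

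Same-numbered PBS and SNI sEV libraries deviated together from their group means. Correlations across genes were 0.154 to 0.363 in 3 of 3 pairs, against -0.351 to 0.220 for different numbers. These ranges overlap, and the libraries are taken as possible pairs in an alternative fit alone. Same-numbered ranges were -0.0176 to 0.0512 for PBS with sham sEV and 0.0172 to 0.0772 between the vesicle groups, whose numbers are not taken as pairs. The labels do not say what a number marks, and the main results use no pairing. Alternatives changed the pseudocount (0.1 or 0.5), the filter (none, or a mean of 5 TPM or more) and the scaling (median of ratios, or quantiles), fitted only the groups compared, added the replicate number as a block, or left out each library in turn. A block fitted without the sham sEV libraries was chosen after seeing the data.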

Additional observations from a re-analysis of the deposited data

Results flagged for a closer look

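Slfn9 was the 1 member for which every sham sEV library lay below every PBS library while every SNI sEV library lay above every PBS library. The difference itself was tested: SNI sEV against sham sEV gave a log2 fold change of 1.16 ± 0.17 SE (limma adjusted p = 8.71e-05), and it ranged from 0.85 to 1.28 over 18 alternatives, with limma adjusted p from 1.23e-06 to 0.000766. The rise of Slfn9 over PBS under SNI sEVs did not pass the test on its own (limma adjusted p = 0.106). Without PBS library 2 that rise passed the test (0.61, limma adjusted p = 0.0282). PBS library 2 was the highest PBS library for every member except Slfn4. Dixon's criterion set no PBS value of a member apart from the other 3. With so few libraries it has little power. It also takes each gene alone, so it cannot show a library that is high across members, and no conclusion is drawn from it.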

How the results depend on the processing

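For sham sEVs against PBS, the call and direction of all 7 members held in every alternative that tested them. For SNI sEVs against PBS the calls of Slfn2, Slfn5 and Slfn8 held in all 19 alternatives. A mean of at least 5 TPM leaves out Slfn1, Slfn3 and Slfn4, so 4 members were called for sham sEVs against PBS (3 higher) and 3 for SNI sEVs against sham sEVs (2 lower). Beside the calls of Slfn3, Slfn5 and Slfn9 given with those genes, the replicate block over all 3 groups called Slfn3 between the vesicle groups (-0.33, limma adjusted p = 0.00665), a comparison whose numbers were not taken as pairs. With a replicate block fitted to PBS and SNI sEV libraries as possible pairs, without sham sEV, no member's call changed. That fit called 461 genes (127 lower) against 790 (350 lower) in the main fit.

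Over all genes, the split of higher and lower calls turned on scaling in both comparisons with sham sEVs: 4728 and 4579 with median-of-ratios scaling and 4307 and 4883 with quantile normalization against PBS, and 4250 and 4466, then 4373 and 4130, for SNI sEVs against sham sEVs. SNI sEVs against PBS gave 481 calls (155 lower) with only the 2 groups in the fit. Leaving out 1 library gave 373 to 1156 calls there, 280 to 503 higher and 93 to 653 lower, lowest without SNI sEV library 1 and highest without PBS library 1. Values that changed sign, with a call in at least 1 of the settings, were Nle1 between the vesicle groups (-0.020 after quantile normalization) and Slfn10-ps for sham sEVs against PBS without PBS library 1 (-0.18, and up to 0.15 without another library). The cause was not tested. With no depth, the error of values near 0 TPM, such as Slfn1 outside the sham sEV group, cannot be given.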
